A study of Mus musculus with 8 samples.

Results

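Blood vascular endothelial nuclei, the nuclei of the cells that line arteries, capillaries and veins, made up 761 of the 64803 nuclei retained from 8 single-nucleus RNA libraries of mouse gastrocnemius, a calf muscle. A nucleus was retained if over 200 but under 6000 genes were detected in it, and if mitochondrial genes supplied less than 6% of its unique molecular identifiers (UMIs). It was called a member when the endothelial genes Pecam1, Cdh5, Flt1, Ptprb and Emcn together had at least 4 UMIs over at least 3 of these 5 genes. Members also had no UMI of Mmrn1 or Reln, which mark lymphatic vessels, of Pdgfra, which marks fibro-adipogenic progenitors, of Ptprc, which marks leukocytes, or of Rgs5, which marks pericytes. The same expression values therefore chose the members, and every comparison of members with other nuclei is given as a description without a test.

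All mice were wild-type C57BL/6 animals and formed 4 groups of 2 libraries each. Old mice were 20 months of age and Young mice 3 months. Running and Sedentary mice belonged to an exercise model that began at 11 months of age and lasted 2 months, in which Running mice trained on a treadmill and Sedentary mice did not. Replicate 1 of each group was a 10x Genomics library and replicate 2 came from a second library set made with DNBelab C of MGI, so each group had 1 library per method. The number of animals behind a library is not given in the sources used here, and p-values measure only the spread between these libraries.

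Endothelial cells of skeletal muscle form the barrier between blood and muscle fibres. Capillary cells take up fatty acids through CD36 and FABP4 and carry lipoprotein lipase on GPIHBP1. Arterial cells depend on Notch signalling and SOX17, and venous cells on NR2F2 and adhesion molecules such as VCAM1 and P-selectin through which leukocytes leave the blood. Genes of the endothelium are bound by factors of the ETS family, such as ERG and FLI1, which recognise sites with the core GGAA.

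Promoter sequences of 4 of the 20 leading genes, which are defined below, are printed here. The members were called from transcripts alone, and these windows show the DNA before the start of genes that the rule did not use. Each is the 250 bases before the annotated start in RefSeq on GRCm38.p6, written on the strand of the gene, with the letters AGGAAG or their reverse complement in capitals. Robo4 encodes an endothelial guidance receptor and lies at chr9:37401722-37401971 on the plus strand. Tm4sf1 encodes a tetraspanin-like membrane protein and its window lies at chr3:57301989-57302238 on the minus strand. The window of Fgd5, a guanine nucleotide exchange factor, lies at chr6:91978715-91978964 on the plus strand. The window of Cldn5, the main claudin of endothelial tight junctions, lies at chr16:18776597-18776846 on the plus strand and had no match.
Robo4: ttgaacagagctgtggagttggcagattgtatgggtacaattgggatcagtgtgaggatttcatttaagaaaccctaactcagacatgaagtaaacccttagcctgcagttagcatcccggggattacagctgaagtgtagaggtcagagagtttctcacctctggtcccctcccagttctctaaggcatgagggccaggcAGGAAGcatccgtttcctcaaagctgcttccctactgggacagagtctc
Tm4sf1: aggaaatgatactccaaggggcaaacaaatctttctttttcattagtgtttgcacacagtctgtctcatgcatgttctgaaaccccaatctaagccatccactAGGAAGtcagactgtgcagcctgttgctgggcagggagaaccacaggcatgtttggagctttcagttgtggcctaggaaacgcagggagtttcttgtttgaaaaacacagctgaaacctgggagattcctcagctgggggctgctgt
Fgd5: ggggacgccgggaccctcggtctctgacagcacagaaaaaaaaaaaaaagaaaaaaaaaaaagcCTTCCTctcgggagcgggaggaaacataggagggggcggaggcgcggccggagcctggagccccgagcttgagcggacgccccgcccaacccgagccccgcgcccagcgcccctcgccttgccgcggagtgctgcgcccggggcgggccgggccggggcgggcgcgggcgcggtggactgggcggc
Cldn5: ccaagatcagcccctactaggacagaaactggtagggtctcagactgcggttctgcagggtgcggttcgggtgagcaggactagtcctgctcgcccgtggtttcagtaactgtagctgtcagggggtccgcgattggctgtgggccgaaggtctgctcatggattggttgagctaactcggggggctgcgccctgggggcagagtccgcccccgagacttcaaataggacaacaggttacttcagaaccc

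Over windows that also took in the 50 bases after the start, AGGAAG on either strand was found in 7 of the 9 leading genes with a RefSeq promoter (77.8%), in 18 of 32 (56.2%) among the 50 leading genes of the 10x libraries, and in 7 of 15 (46.7%) of the pan-endothelial genes, against 9498 of 27025 (35.1%) of all promoters. The sets are small and were chosen on these data. None of the 9 held the FOX-like GTAAACA, the SOX-like AACAAT or the GATA-like AGATAA, which were in 3.55%, 10.9% and 11.4% of all promoters. The KLF/SP-like GGGCGG was in 4 of 9 against 35.9% of all promoters, and the E-box CANNTG in 6 of 9 against 72.1%. A match is a stretch of letters and was not tested as a binding site.

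The 10x libraries held 714 of the members among 47059 nuclei (1.52%), and the second set held 47 among 17744 (0.265%). Of the nuclei with enough endothelial UMIs, 1119 in all, 358 carried a UMI of an excluded gene, 180 of them Rgs5, 67 Pdgfra and 25 Ptprc, with 116 set aside for lymphatic genes. Just inside the rule were 52 members with exactly 4 UMIs and 335 with exactly 3 of the genes, and 158 members had all 5 genes. Just outside it were 50 nuclei with 3 genes and 3 UMIs and 202 nuclei with enough UMIs over 2 genes. Among 10x members Flt1 was detected in 94.1%, Ptprb in 85.4%, Pecam1 in 81.4%, Cdh5 in 60.9% and Emcn in 57.4%. In the 10x libraries members had 497 to 10789 UMIs each and in the second set 655 to 3189. The median member of Old replicate 1 held 1636 UMIs and the median other nucleus there 2823. The barcodes shared by any 2 of the 10x libraries numbered 30 to 46.

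The endothelial label was checked on 24 pan-endothelial genes that the rule did not use. In the 10x libraries these genes took 1.86% to 2.68% of the UMIs of members and 0.0638% to 0.0910% of those of other nuclei. At least 3 of them were detected in 710 of 714 members (99.4%). Each of the 24 was higher in members in all 4 of the 10x libraries, with log2 ratios from 2.22 to 7.58 and a median of 5.57. In the second set at least 3 were detected in 37 of 47 members (78.7%). Old replicate 2 stood apart, since only 5 of its 10 members had 3 or more of these genes, the median member had 2.5, and the genes took 0.320% of UMIs in members and 0.148% in its other nuclei. Dach1, an endothelial transcription factor, was at 128 CPM (counts per 1000000 UMIs) in the members of that library, and 2 UMIs stood behind this value. The Old minus Young values below include it, and values without it are given beside the main ones.

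Genes outside the rule that were highest in members relative to all other nuclei were ranked by the smallest of the 8 library ratios. The 20 leading genes were Gbp4, Hoxb6, Cytl1, Sox17, Mmrn2, Arhgef15, Tm4sf1, Gbp9, Robo4, Fgd5, Cldn5, Icam2, Nos3, Tnfsf10, Npr1, S1pr1, Rasip1, Iigp1, Sh2d3c and Gvin1. Their log2 ratios in the 10x libraries ran from 3.48 to 8.23. In the second set 11 of the 80 gene-by-library entries held 0 UMIs, and 11 of the 20 genes had a UMI in all 4 of its libraries. The reads of Gbp4, Gbp9, Iigp1 and Gvin1 may be shared with closely related copies, so which copy they came from is uncertain.

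**Figure D1:**
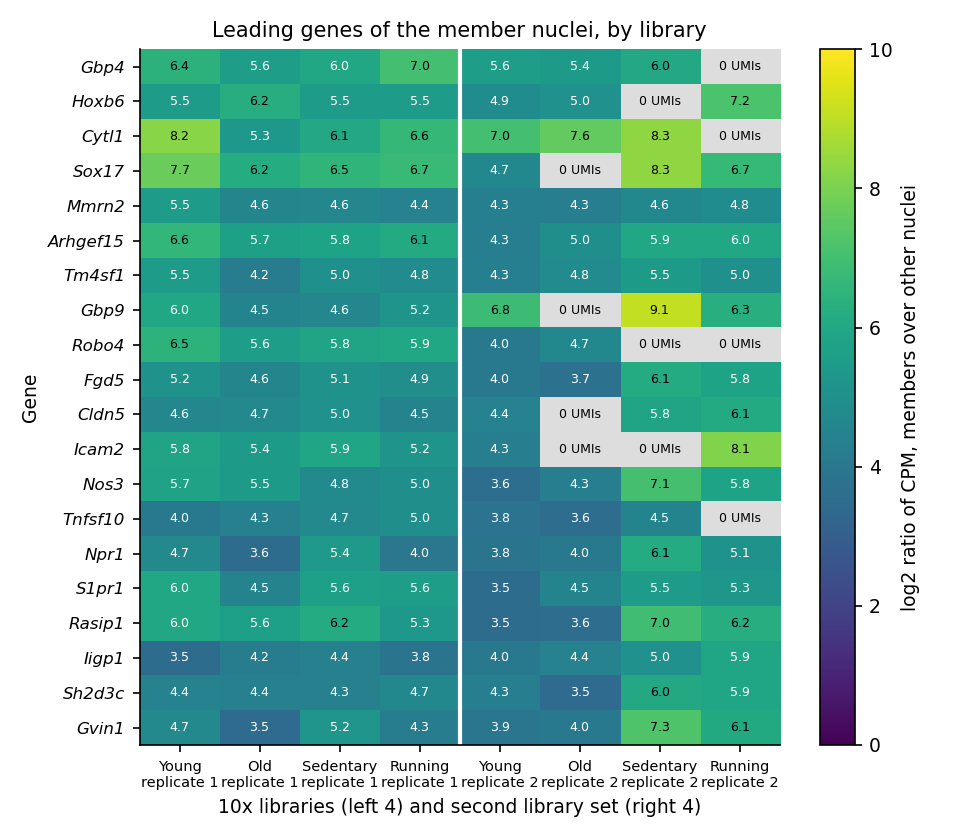
Log2 ratio of CPM in members over all other nuclei (colour) for the 20 leading genes (rows) in the 8 libraries (columns). Ratios in the 10x libraries lie between 3.48 and 8.23, and grey cells mark the 11 entries of the second library set with 0 UMIs in members.

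Sox17, an arterial and endothelial transcription factor, measured 126 CPM in Old replicate 1, 133 in Young replicate 1, 128 in Running replicate 1 and 108 in Sedentary replicate 1. These 4 values lay close together, and the second set gave 0, 2, 1 and 3 UMIs in the order Old, Young, Running and Sedentary. Sox17 was detected in 20% of the 10x members and in 0.0823% of myofibre nuclei, those with at least 10 UMIs of myofibre genes and none of the genes of the rule. Robo4 measured 115, 130, 111 and 108 CPM in the same order of 10x libraries. Its detection was 19.2% of members against 0.0898% of myofibre nuclei. Fgd5 measured 491, 552, 444 and 363 CPM in the 10x libraries and 320, 185, 394 and 344 CPM in the second set, where it had 4 to 7 UMIs per library. Cldn5 measured 179, 93.5, 99.3 and 59.5 CPM, highest in Old replicate 1. Nos3, the endothelial nitric oxide synthase, measured 181, 204, 146 and 97.4 CPM. Cytl1, a secreted cytokine-like protein, varied most, from 49.6 CPM in Running replicate 1 to 530 CPM in Young replicate 1. Myofibre nuclei were the deeper ones in the 10x libraries, with medians of 1853 to 3634.5 UMIs against 1243 to 1939 in members.

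Receptors of the vascular growth factors were higher in members than in other nuclei, and the ligands Vegfa and Angpt1 were lower. Of 17 genes of the VEGF, angiopoietin and tip cell list with values, 14 were higher in members in every 10x library and 2 were lower. Only 13 of the 17 had a UMI in members of Sedentary replicate 1. At least 1 was therefore scored as higher there on the pseudocount of 0.5 UMIs alone. The share of all genes that were higher is not given for this or the other lists. Kdr, the main VEGF receptor, measured 289, 380, 315 and 336 CPM in the 10x libraries in the order Old, Young, Running and Sedentary, and was detected in 38.9% of members and 0.457% of myofibre nuclei. The angiopoietin receptor Tek measured 484, 649, 581 and 384 CPM, and the related receptor Tie1 measured 152, 201, 199 and 81.2 CPM. Vegfa was detected in 20.4% of members and in 71.5% of myofibre nuclei, and Angpt1 in 11.5% and 31.6%. Pdgfb, through which endothelial cells recruit pericytes, was detected in 30.8% of members and 3.88% of myofibre nuclei. The tip cell gene Apln had 1 detected member among 714, or 0.140%.

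In the Notch list, 11 of 13 genes were higher in members in every 10x library. The ligand Dll4 measured 56.8, 102, 73.0 and 86.6 CPM and was found in 11.6% of members and 0.109% of myofibre nuclei. The receptors Notch1 and Notch4 were detected in 18.6% and 11.3% of members. In the BMP and TGF-beta list, 13 of 18 genes were higher in members in every 10x library. The ligand Bmp6 measured 1240, 1247, 855 and 1418 CPM and its detection was 59.8% of members against 2.63% of myofibre nuclei. The co-receptor Eng measured 379, 414, 426 and 411 CPM in the 10x libraries, and 64.1, 265, 492 and 824 CPM in the second set. The Eng values of the second set rest on few UMIs.

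Genes of fatty acid uptake and barrier function followed. In the lipid handling list 13 of 18 genes were higher in members in every 10x library. Cd36 measured 1388, 1306, 1419 and 1997 CPM and was detected in 78.3% of members, but also in 29.9% of myofibre nuclei. Fabp4 was detected in 69.0% of members and 9.93% of myofibre nuclei, and Gpihbp1, the lipase anchor of capillaries, in 19.6% and 0.236%. Lpl, whose protein is made by the muscle fibre and fat, measured 258, 238, 269 and 330 CPM in members, with log2 ratios of 0.17 to 1.40. Of the junction and barrier genes, 18 of 20 were higher in members in every 10x library. The glucose carrier Slc2a1, which marks the blood-brain barrier, was detected in 1.40% of members and 1.67% of myofibre nuclei.

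Genes by which vessels sense flow and signal to leukocytes were also mostly higher in members. In the shear stress and vasomotor list 12 of 17 genes were higher in every 10x library. The list as a whole took 0.265% to 0.366% of member UMIs there, below other nuclei in each library (0.295% to 0.521%). Calcrl, the receptor of adrenomedullin, was detected in 35.2% of members and 6.57% of myofibre nuclei, and the mechanosensitive channel Piezo1 in 21.4% and 6.89%. In the interferon and MHC list 21 of 25 genes were higher, although only 20 had a UMI in members of Sedentary replicate 1. Of the MHC class I genes, H2-D1 measured 370, 484, 266 and 314 CPM, although reads of H2-D1 and H2-K1 may be split between near-identical copies. The class II chaperone Cd74 was not higher throughout, with log2 ratios from -1.42 to 0.14. Among the basement membrane and matrix genes 13 of 18 were higher, and among the senescence genes 11 of 17. The cell cycle inhibitor Cdkn2a was detected in 0.280% of members and 0.109% of myofibre nuclei.

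Glycolysis, which the study examined across muscle, was lower in members than in other nuclei for 11 of 22 core glycolysis and lactate genes in every 10x library and higher for 3, with a median log2 ratio of -0.51. Ldha, the lactate dehydrogenase subunit of fast fibres, measured 93.0, 65.2, 70.1 and 27.1 CPM in members of Old, Young, Running and Sedentary replicate 1. It was detected in 11.8% of members and 40.5% of myofibre nuclei. The second set held 8, 8, 4 and 3 UMIs of Ldha. Hk1, a hexokinase, was among the genes higher in members, with log2 ratios of 1.0 to 2.38. Of 16 DNA repair and proteostasis genes that the study named, 10 were lower in members in every 10x library and 1 was higher, and of 15 lactylation enzymes 2 were lower and 3 higher. None of 18 myofibre, 12 fibro-adipogenic progenitor, 11 macrophage and lymphocyte and 6 adipocyte markers was higher in members in every 10x library. Members still held fibre RNA, since the 18 myofibre markers took 1.86% to 3.23% of member UMIs in the 10x libraries and 4.55% to 8.28% in the second set. In Old replicate 2 this share, 8.28%, was above the 5.83% of its other nuclei, and in the other libraries it was below.

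Members were assigned to a vessel zone by the arterial, capillary or venous list with the most UMIs, if that list had at least 2 and no other list had as many. In the 10x libraries 534 of 714 members (74.8%) were capillary-marked, 82 (11.5%) venous-marked, 60 (8.40%) arterial-marked and 38 (5.32%) unmarked. After every member was thinned to 500 UMIs the shares were 56.9%, 8.12%, 5.88% and 29.1%, so the unmarked share depended on depth. The lists also differed in abundance outside members. In other nuclei of the 10x libraries the capillary genes summed to 330 to 870 CPM. The arterial genes summed to 51.5 to 97.3 CPM and the venous genes to 91.6 to 132 CPM. Raw UMIs set the marks, so these shares do not measure vessel composition. Among the 4 10x libraries the capillary-marked share ran from 68.2% to 81.0%. Of the 47 members of the second set, 26 were capillary-marked, 6 venous-marked, 2 arterial-marked and 13 unmarked.

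**Figure D2:**
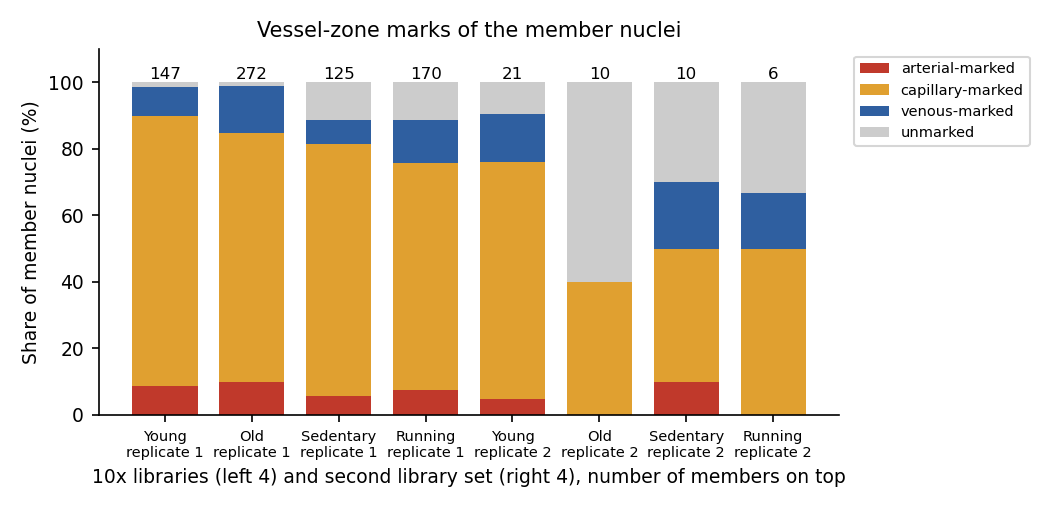
Share of members in percent (vertical axis) marked as arterial, capillary or venous, or unmarked, in each library. Capillary-marked nuclei make up 68.2% to 81.0% of members in the 10x libraries, and the bars of the second library set rest on 6 to 21 nuclei each.

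Arterial-marked and venous-marked members differed in genes outside the zone lists. Only Old replicate 1 had at least 20 of each, 27 arterial-marked with 78469 UMIs and 38 venous-marked with 103038 UMIs, so the values of this library come from 1 sample. No test of the zones is given, since transcripts of the same nuclei set them. Thsd7b had 32 UMIs in arterial-marked and 0 in venous-marked members of Old replicate 1, and Frmd5 had 44 and 5. Pooled over the 10x libraries Thsd7b had 50 and 2, with 0 in both zones of Running replicate 1. On the venous side, Kirrel3 had 3 UMIs in arterial-marked and 207 in venous-marked members, and Nrp2, a semaphorin and VEGF-C receptor, 0 and 47. Kirrel3 and Nrp2 had more UMIs in venous-marked members in each of the other 10x libraries too. Unc5c, a netrin receptor, had 21 UMIs in venous-marked members of Old replicate 1 and 7, 3 and 3 in the other 10x libraries, and 0 in arterial-marked members of all 4. Ccdc85a had 0 and 31 UMIs in Old replicate 1 but 6 and 3 in Young replicate 1 and 19 and 8 in Running replicate 1, so its order between these zones was not shared by the libraries.

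Pooled over the 10x libraries, with 167313 arterial-marked and 225098 venous-marked UMIs, the actin-binding gene Nebl had 125 and 10 UMIs. The adhesion receptor Adgrg6 had 1 and 123 UMIs, Gpm6a 0 and 70, Wdr17 0 and 68, and the junction gene Plekha7 0 and 61. Capillary-marked members, with 1008981 UMIs, were compared with the arterial-marked and venous-marked members together, with 392411 UMIs. The glutamate transporter Slc1a1 had 134 UMIs in capillary-marked members and 1 in the others, Slc28a2, a nucleoside transporter, 490 and 19, the sialyltransferase St8sia4 319 and 13, and Ccdc85a 2353 and 77. In the other direction Mgp, an inhibitor of calcification, had 68 UMIs in capillary-marked members and 680 in the others, Cytl1 28 and 313, and Pkhd1l1 10 and 126.

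The question of the first comparison was how members changed with age. Members were 2.33% of nuclei in Old replicate 1 (Wilson 95% interval 2.07% to 2.62%) and 1.25% in Young replicate 1 (1.06% to 1.46%). In the second set they were 0.210% of nuclei in Old replicate 2 and 0.466% in Young replicate 2. The higher group was therefore Old in the 10x libraries and Young in the second set. The mean share was 1.27% in Old and 0.856% in Young, a difference of 0.413 percentage points, with a two-sided exact permutation p of 1, where 2 libraries a group allow no p below 0.333. Within the 10x set the difference was 1.08 points and within the second set -0.256 points. Without Old replicate 2 the difference of the means was 1.47 points. That value sets a 10x Old library against the mean of Young libraries of both methods, so it mixes method with age. Members were 1.31% of nuclei in Running replicate 1 (1.13% to 1.52%), 1.18% in Sedentary replicate 1 (0.992% to 1.40%), 0.142% in Running replicate 2 and 0.236% in Sedentary replicate 2. Running and Sedentary means were 0.725% and 0.708%, a difference of 0.0168 points (exact permutation p = 1). A share of nuclei cannot tell more endothelial cells from fewer nuclei of other types, and the intervals cover counting error only.

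**Figure D3:**
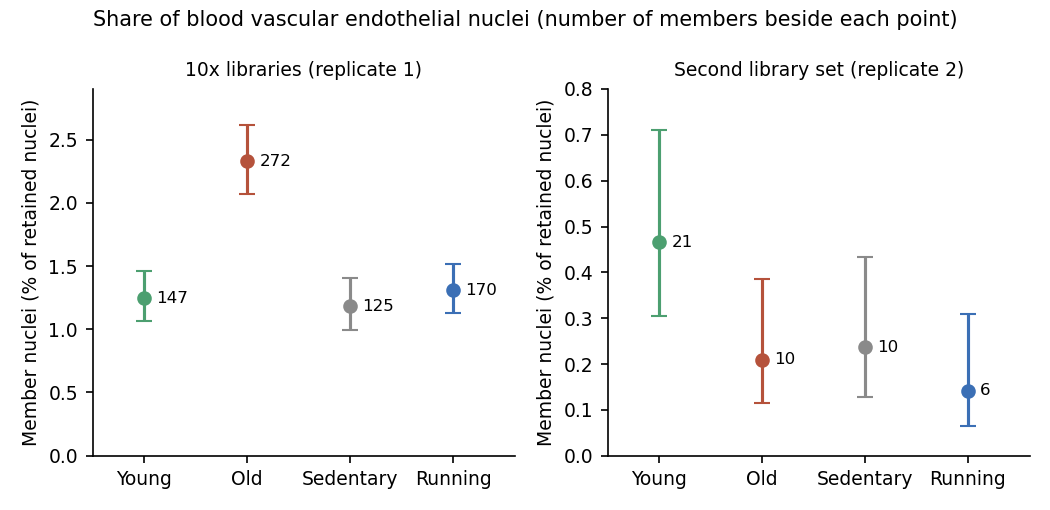
Members as a percent of retained nuclei in each library, with Wilson 95% intervals as bars and a separate vertical scale for each library set. The 10x libraries lie between 1.18% and 2.33% and the second library set between 0.142% and 0.466%.

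In zone shares, the Old minus Young difference of the group means was -1.84 points for arterial-marked, -18.7 points for capillary-marked and -4.58 points for venous-marked members. Without Old replicate 2, which held 10 members, these became 3.12, -1.19 and 2.41 points, so the arterial and venous directions turned. Those values set a 10x Old library against the mean of Young libraries of both methods. Within the 10x set the Old minus Young differences were 1.08, -5.95 and 5.13 points. The Running minus Sedentary differences of the group means were -3.98, 1.12 and 1.20 points. The exact permutation p-values ran from 0.667 to 1. Between the Old and Young 10x libraries the capillary-marked share was 75% and 81.0%, and in Old replicate 2 it was 40.0% of 10 members.

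Between Old and Young, 1 of 3841 tested genes passed an adjusted p of 0.05 (0.026% of genes tested), and 43 had an unadjusted p under 0.05 (1.12%). That gene was Gsn, which encodes the actin-severing protein gelsolin and lies at chr2:35256380-35307892 on the plus strand of mm10. Among 10x libraries, Old members held 577 UMIs of Gsn and Young members 45, while Running members held 100 and Sedentary members 49. The second set held 11, 2, 6 and 2 UMIs in the same order. As CPM the Old libraries measured 994 and 705 and the Young libraries 127 and 53.0. Gsn rose by 3.05 on the log2 scale (SE 0.67, edgeR quasi-likelihood adjusted p = 0.0231), and the differences within the library sets were 2.87 and 3.51. A UMI of Gsn was present in 228 of 272 members of Old replicate 1 and in 39 of 147 members of Young replicate 1. DESeq2 also called Gsn (adjusted p = 0.0365). The call was lost without Old replicate 1 (adjusted p = 0.761), without Young replicate 1 (0.996), and without any single library of the second set (adjusted p = 1 in each case), while the log2 difference stayed between 2.78 and 3.71.

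Gsn is also one of 12 markers of fibro-adipogenic progenitors fixed for this work. Outside members it was also higher in Old than in Young in both library sets. The order of the groups differed, since Young replicate 1 was above Running and Sedentary replicate 1 in all other nuclei but lowest of the 10x libraries in members. In all other nuclei Gsn measured 2993, 1154, 1056 and 513 CPM in Old, Young, Running and Sedentary replicate 1, and in myofibre nuclei 654, 135, 320 and 225 CPM. In myofibre nuclei of the second set it measured 234, 116, 253 and 184 CPM. The other 11 markers took 0.0972% of member UMIs in the Old and 0.0164% in the Young 10x library, and a UMI of any of them was in 75.7% and 28.6% of members. In the second set the direction turned, with 5 UMIs (0.0320%) in Old and 19 UMIs (0.0503%) in Young members. Adipocyte markers took 0.028% and 0.083% of member UMIs in the Old libraries and 0.009% and 0.008% in the Young. The part of RNA from such cells in the Gsn result was not tested.

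**Figure D4:**
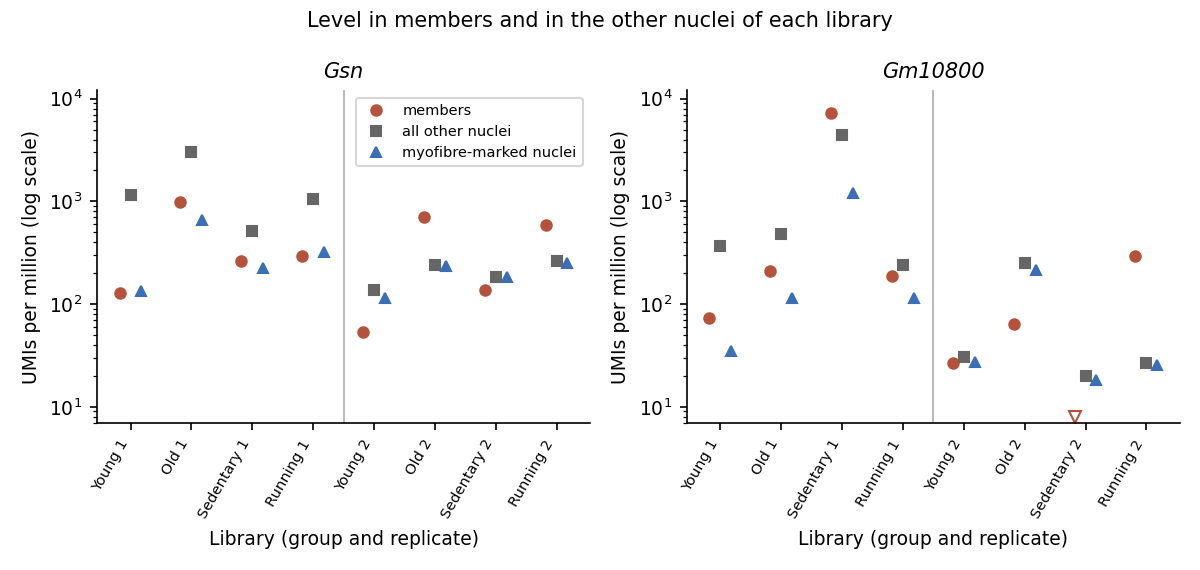
CPM (log axis) of Gsn and Gm10800 in members, in all other nuclei and in myofibre nuclei of each library, with open triangles for 0 UMIs. Gsn is 994 in members of Old replicate 1 against 127 in Young replicate 1, while myofibre nuclei of the same libraries are at 654 and 135.

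No other named gene passed the test in this comparison. The complement gene C3 had 31 UMIs in Old replicate 1 and 8 in Old replicate 2, all 8 in 1 nucleus, and 0 in both Young libraries (adjusted p = 0.176). Ebf2, a transcription factor of mesenchymal cells, had 77 and 3 UMIs in the Old libraries and 1 and 1 in the Young (adjusted p = 0.900). Of endothelial genes, Itga1, a collagen-binding integrin subunit, measured 594 and 0 CPM in Old and 1451 and 344 in Young, a log2 difference of -1.53 (SE 0.64, edgeR unadjusted p = 0.0179, adjusted p = 1). Without Old replicate 2 the log2 difference of Itga1 was -1.11. Dach1 measured 2377 and 128 CPM in Old and 3618 and 874 in Young, with a log2 difference of -1.45 and an adjusted p of 1 by edgeR, and -1.16 without Old replicate 2. The interferon-induced GTPase Gbp7 had 28 and 0 UMIs in Old and 72 and 1 in Young (log2 difference -2.05, SE 0.99, edgeR adjusted p = 1), and the log2 difference was -1.96 without Old replicate 2.

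Endothelial gene lists were counted against the median log2 difference of all tested genes, which was -0.10, with 1649 genes higher and 2192 lower in Old. Of 22 pan-endothelial genes tested 4 were higher and 18 lower in Old, with a median of -0.67 and none called. In the second set this median was -2.00 and in the 10x set -0.37. Without Old replicate 2 it was -0.47 and without Old replicate 1 it was -2.42. The junction genes gave 5 higher and 12 lower with a median of -0.49, the VEGF and tip cell genes 3 and 8 with -0.37, and the basement membrane genes 2 and 13 with -0.30. The interferon and MHC genes gave 2 higher and 7 lower with a median of -0.94, which was -1.23 among 10x libraries and 0.26 in the second set. The 6 arterial genes had a median of -0.15, the 11 capillary genes -0.26, and the 5 venous genes -0.42. Within the sets the venous medians were 0.10 and 0.24, of the other sign than in the fit of all 8 libraries, as were those of the shear stress and vasomotor genes, at -0.16 and -0.47 against 0.16. The 12 lipid handling genes had a median of 0.27 and the 12 glycolysis genes 0.24, with 7 glycolysis genes higher and 5 lower. Without Old replicate 2 the medians were -0.52 for junction genes, -0.46 for VEGF and tip cell genes, -0.33 for basement membrane genes and -0.95 for interferon and MHC genes. They were -0.41 for capillary and -0.24 for venous genes, while the arterial median turned to 0.10, the lipid handling median to -0.32 and the glycolysis median was 0.03. None of the genes in these lists passed the adjusted threshold.

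**Figure D5:**
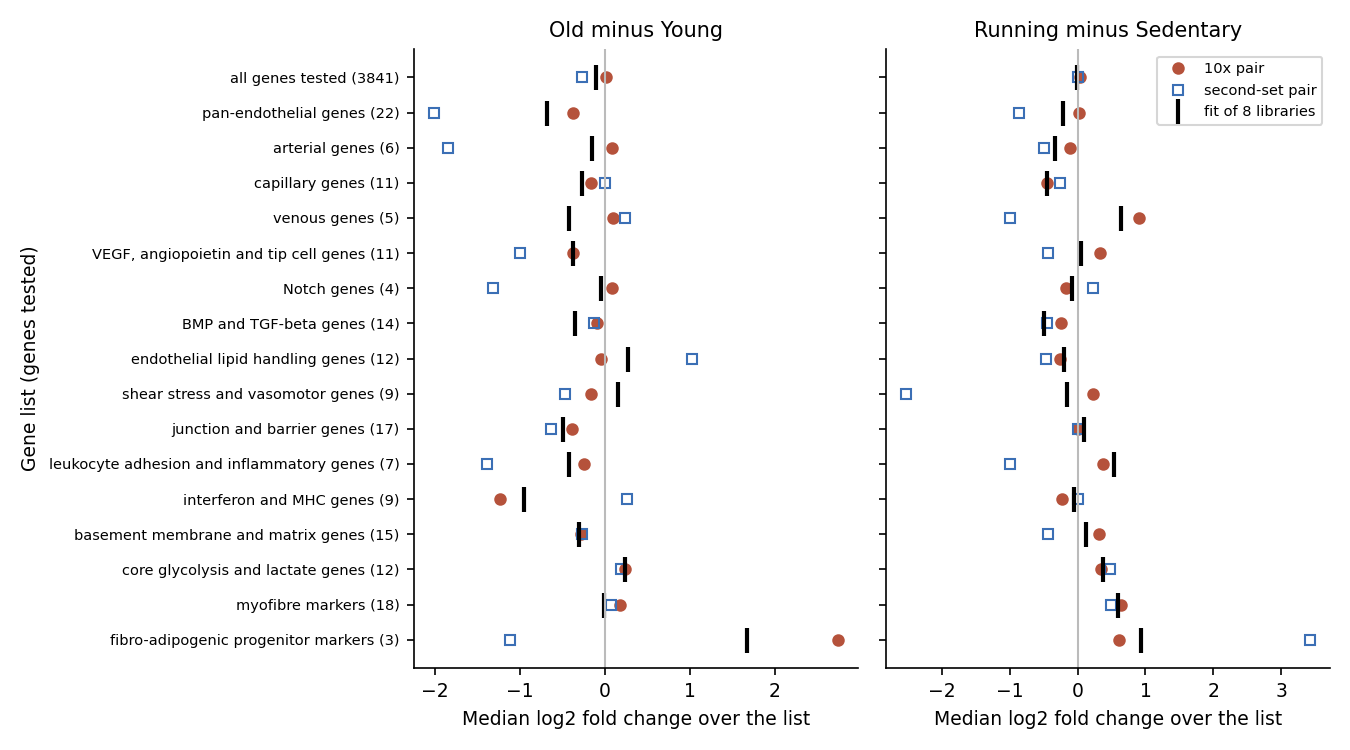
Median log2 difference of the tested genes of each list in members for Old minus Young (left) and Running minus Sedentary (right), over both library sets and within each. The median of all genes tested is -0.10 on the left and -0.01 on the right, and several lists have medians of opposite sign in the 2 sets.

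The second condition comparison asked how members of trained mice differed from those of untrained mice. Of 3841 genes, 2 passed an adjusted p of 0.05 (0.0521%), both lower in Running, and 47 had an unadjusted p under 0.05 (1.22%). Gm10801 (chr2:98662237-98664083, plus strand) and Gm10800 (chr2:98666547-98667301, minus strand) are neighbouring predicted genes of mm10, and their reads can come from closely similar copies. Gm10800 had 64 UMIs in Running replicate 1, 1346 in Sedentary replicate 1, 3 in Running replicate 2 and 0 in Sedentary replicate 2. Gm10801 had 33, 401, 19 and 4 UMIs. Gm10800 was high in Sedentary replicate 1 alone, at 7285 CPM. Gm10801 was at 2170 CPM there, but also at 2818 CPM in Old replicate 2 and 1870 CPM in Running replicate 2. In Sedentary replicate 1 the 5 members with most UMIs held 86.1% of those of Gm10800 and 83.0% of those of Gm10801. Gm10801 fell by 3.20 on the log2 scale (SE 0.70, edgeR adjusted p = 0.0178) and Gm10800 fell by 3.99 (SE 0.92, edgeR adjusted p = 0.0270). Within the 10x set the differences were -4.35 and -5.21, and within the second set 2.72 and 4.91, the opposite direction. DESeq2 called neither and made 0 calls, with 40 genes at an unadjusted p under 0.05. Without Sedentary replicate 1 edgeR called 0 genes, with 90 at an unadjusted p under 0.05. All other nuclei of Sedentary replicate 1 measured 4451 CPM of Gm10800 and myofibre nuclei 1219 CPM, so the high level was not limited to members.

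Among genes that were not called, Cp, which encodes the copper oxidase ceruloplasmin, had 95 and 8 UMIs in the Running libraries and 4 and 1 in the Sedentary (log2 difference 3.69, edgeR adjusted p = 0.310). Ccdc3 and Pkhd1l1, both low in capillary-marked members, had 13 and 35 UMIs in Running replicate 1 and 0 and 2 in Sedentary replicate 1. Sedentary replicate 1 held 7 arterial-marked and 9 venous-marked members, and Running replicate 1 held 13 and 22. In the same zone order Pkhd1l1 had 0 and 1 UMIs in these Sedentary members and 13 and 19 in the Running ones. Ccdc3 had 0 and 0 against 0 and 6. Whether the zones bear on these differences was not tested. The collagen gene Col8a1 had 73 and 2 UMIs in Running and 98 and 14 in Sedentary, a log2 difference of -1.89 with an edgeR adjusted p of 1. Edn1, the vasoconstrictor endothelin, measured 99.3 and 394 CPM in Running and 10.8 and 137 CPM in Sedentary (log2 difference 2.41, edgeR adjusted p = 1). Outside Running replicate 1 these Edn1 values rest on very few UMIs.

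Contractile genes were higher in Running for 13 of 18 myofibre markers, with a median log2 difference of 0.59 against -0.01 for all genes and 5 genes at an unadjusted p under 0.05. Myh7 had the lowest value, -3.06, and 12 markers were higher and 3 lower in both library sets. The troponin gene Tnnc2 had 112 and 55 UMIs in Running and 9 and 24 in Sedentary (log2 difference 2.18, edgeR adjusted p = 0.453), and Acta1, the skeletal actin, 425 and 47 against 50 and 25. Myofibre markers took 3.23% of member UMIs in Running replicate 1 and 2.70% in Sedentary replicate 1. Of 12 glycolysis genes 11 were higher in Running, with a median of 0.38, and Gapdh was lower (log2 difference -0.47). The only one at an unadjusted p under 0.05 was Aldoa (log2 difference 1.43). For Tnnc2 and Acta1 the same direction was found outside members. Tnnc2 measured 315 CPM in myofibre nuclei of Running replicate 1 and 66.4 CPM in those of Sedentary replicate 1, against 327 and 48.7 CPM in members. Acta1 measured 1747 and 329 CPM in these myofibre nuclei, against 1241 and 271 CPM in members. Gapdh measured 74.7 and 24.8 CPM in these myofibre nuclei, against 49.6 and 37.9 CPM in members. The source of the contractile and glycolysis transcripts in members was not tested. Of 5 venous genes 4 were higher with a median of 0.64, which was 0.91 among 10x libraries and -0.99 in the second set. Of 11 capillary genes 9 were lower with a median of -0.46, and of 14 BMP and TGF-beta genes 10 were lower with a median of -0.50. Of all 3841 genes tested 1888 were higher and 1953 lower. Leaving out 1 library moved the venous median between -1.19 and 1.07 and the capillary median between -1.15 and 0.18. The BMP and TGF-beta median moved between -0.67 and 0.40, the myofibre median between -0.33 and 1.19, and the glycolysis median between 0.04 and 0.80. None of the genes in these lists passed the adjusted threshold.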

How the data were processed

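Nuclei of gastrocnemius muscle were profiled in 8 libraries, and the deposited values are raw UMI counts per gene and nucleus, which the authors made with Cell Ranger 6.1.2 (10x, per the submitters' processing notes) or PISA (DNBelab C of MGI) on mm10. The study's methods used Seurat 4.1.1 and name no removal of doublets. Of 65280 deposited nuclei 64803 were retained. The 21207 gene symbols found in every file were used, and 88 ribosomal protein, 12 mitochondrial and the 10 genes of the member rule were left out of tests. Counts of members were summed per library (10162 to 580503 UMIs), since nuclei are not replicates, and tested with edgeR 4.0.16 (glmQLFit, glmQLFTest, TMM, filterByExpr) with group and library set as terms and 3 residual degrees of freedom. A minimum of 20 members a library was planned, but it left 5 libraries and no residual degrees of freedom, so all 8 entered. P-values were adjusted over 3841 genes by the Benjamini-Hochberg method. DESeq2 1.42.0, scaling, filters, other member rules, thinning to 500 UMIs and leaving out each library were alternatives. Scripts were tested on simulated data. Log2 ratios of members to other nuclei used a pseudocount of 0.5 UMIs. Scrublet marked 2.56% to 4.72% of nuclei in 3 libraries and 0 in 5, so it was taken not to have worked there. Doublets were kept, and 59 members lay in the top 6% of scores.

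Named genes were the 20 genes with the largest smallest-over-libraries ratio at a mean of at least 50 CPM, up to 10 genes a direction per comparison by p where the mean log2 CPM reached 5 and with the same direction in both library sets (called genes first), members of 26 gene lists, Ldha, and 8 genes each way per zone contrast. The zone contrasts were also pooled over the 10x libraries, which was added after the data were seen. The members and lists were chosen with earlier results of these data known. Promoters were RefSeq windows on GRCm38.p6, and 9 of the 20 leading genes matched. A named gene of the Running comparison is not reported here.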

Additional observations from a re-analysis of the deposited data

Results flagged for a closer look

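Several differences pointed one way in the 10x libraries and the other way in the second library set, each with 1 library a group and set, and the difference between the sets was not tested. For Old minus Young, the share of members among nuclei differed by 1.08 percentage points in the 10x libraries and -0.256 in the second set. The share of arterial-marked members differed by 1.08 points and -4.76 points, and that of venous-marked members by 5.13 and -14.3 points. For Running minus Sedentary, the share of members differed by 0.128 points in the 10x libraries and -0.0943 in the second set. Arterial-marked members differed by 2.05 and -10.0 points, capillary-marked members by -7.76 and 10.0 points, and venous-marked members by 5.74 and -3.33 points. The values of the second set rest on 6 to 21 members a library. For Gm10800 the log2 difference was -5.21 in the 10x libraries and 4.91 in the second set, and for Gm10801 it was -4.35 and 2.72. Both genes were high in members of Sedentary replicate 1, at 7285 and 2170 CPM, while in the second set Gm10801 was high in Old replicate 2, at 2818 CPM, and Running replicate 2, at 1870 CPM. The cause was not tested.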

How the results depend on the processing

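With 2 libraries a group and 47 members in the second set, few genes were testable and 1 library could decide a call. The count of genes called between Old and Young, 1 in the report, was 0 with members thinned to 500 UMIs, with the lower share of myofibre UMIs, without a filter on low counts, without the library set term, under the stricter rule, under the looser rule over all 8 libraries, without the highest doublet scores, and without Old replicate 2 and Sedentary replicate 1 together. It was 2 under the looser rule in libraries with at least 20 members and 3 with only the 4 libraries compared. Between Running and Sedentary the count of 2 was 0 with DESeq2 and under the same settings except both looser rules, was 3 under the looser rule over all 8 libraries, 28 under the looser rule with at least 20 members and 5 with only the 4 libraries. Leaving out each library gave 0 to 1 and 0 to 3 calls. The causes were not tested.

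Leaving out 1 library gave share differences of -0.646 to 1.47 points (Old minus Young) and -0.567 to 0.600 points (Running minus Sedentary). Each such setting left 1 group with 1 method and the other with both. These ranges and those that follow for the zones therefore mix method with group. For arterial-marked members the ranges were -6.80 to 3.12 and -7.80 to -0.153 points, for capillary-marked -36.2 to -1.19 and -16.9 to 19.1, and for venous-marked -11.6 to 2.41 and -5.20 to 7.60. The Old minus Young share was -48.1 points with nuclei that lacked a myofibre call as denominator, which numbered only 6 to 21 in 3 libraries of the second set. The arterial-marked difference between Old and Young turned to 2.75 under the looser rule, 0.248 after thinning members and 0.358 with at least 3 UMIs over the list, and between Running and Sedentary to 4.90 under the stricter rule. The capillary-marked difference between Running and Sedentary turned to -4.84 (stricter rule), -4.26 (looser rule), -4.80 (thinned members) and -13.9 (at least 3 UMIs). The venous-marked difference between Old and Young turned to 3.70 under the looser rule and 0.108 with every nucleus thinned.

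Leaving out 1 library moved the Old minus Young log2 difference of Myh1 between -0.41 and 4.21 and of Gm10801 between -0.30 and 2.73, both negative without Old replicate 2. The Running minus Sedentary range was -5.09 to 7.73 for Gm10800 and -4.83 to 2.89 for Gm10801. Without Old replicate 2 and Sedentary replicate 1 together, an alternative chosen after seeing the data, Gm10800 was 7.70, Gm10801 2.60, Tenm1 0.62 and Il1rapl2 1.50. Over all alternatives named genes kept direction and side of the threshold in 680 cases, changed side in 52 and reversed in 9. Most of the 680 were genes without a call in the main fit that stayed without one. Only Gsn, Gm10800 and Gm10801 had a call to lose. Of the 52 changes, 41 were such lost calls and 11 were gained calls. Replicate numbers follow the library set, replicate 1 being 10x in every group, so the fit with the set as a term is the replicate block, and without it edgeR called 0 genes in either comparison, with 11 and 22 at an unadjusted p under 0.05.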

Other observations

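Some genes listed as markers of the neighbouring vessel cell types were detected in members, and the source of these transcripts was not tested. Flt4, the VEGF-C receptor used as a lymphatic marker, was detected in 11.3% of 10x members and 0.311% of myofibre nuclei, with log2 ratios of 2.64 to 3.72, while the lymphatic factor Prox1 was detected in 1.54% and 1.03%. Of 8 lymphatic markers 2 were higher in members in every 10x library, and of 12 mural markers 3, among them Mcam, an adhesion molecule shared by pericytes and endothelium, in 9.24% of members and 2.09% of myofibre nuclei. Mural markers took 0.0214% to 0.0363% of member UMIs in the 10x libraries and lymphatic markers 0.0346% to 0.0467%. Other gene sets were used to count nuclei of these types beside the 761 members. By Mmrn1, Reln, Prox1 and Flt4, 374 nuclei were lymphatic-marked. By Rgs5, Pdgfrb, Abcc9, Notch3 and Kcnj8, 387 were mural-marked. Of these genes Mmrn1, Reln and Rgs5 are ones that the member rule required to be absent. Of 16 immediate early and heat shock genes 9 were higher in members in every 10x library and 2 lower, and the list took 0.0287% to 0.0413% of member UMIs there against 0.0309% to 0.0470% of those of other nuclei.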
